A study of Homo sapiens with 2 samples.

Results

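The genes described here encode the CCAAT/enhancer-binding proteins (C/EBP) CEBPA, CEBPB, CEBPD and CEBPG, the CCAAT-binding protein CEBPZ, and the forkhead factor FOXA1. They were taken by gene name from a table of transcript expression, and all 6 were found among its 11589 gene symbols. Their Ensembl identifiers in the table are ENSG00000245848 (CEBPA), ENSG00000172216 (CEBPB), ENSG00000221869 (CEBPD), ENSG00000153879 (CEBPG), ENSG00000115816 (CEBPZ) and ENSG00000129514 (FOXA1). CEBPE, FOXA2 and FOXA3 were not analysed here.

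HepG2, a human line of hepatocellular carcinoma cells at passage 10 to 15, was either exposed to fluid shear stress (FSS), the force that flowing medium exerts along the cell surface, for 8 h or kept in static culture as the control. Total RNA of 3 replicates was mixed into 1 library per group. The comparison of the 2 libraries asks how flow over the cells alters transcript levels. FPKM, the unit of the table, divides the fragments of a transcript by its length and by the mapped fragments of the library, so that levels of different genes can be set side by side.

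C/EBP proteins carry a basic region that binds DNA and a leucine zipper through which they pair with one another and with other zipper (bZIP) factors. In liver, CEBPA is known for keeping hepatocytes differentiated and out of the cell cycle, CEBPB and CEBPD for the acute phase response to cytokines, and CEBPG for pairing with other bZIP factors while lacking a strong activation domain of its own. CEBPZ shares the name but not the zipper, and is related to yeast Noc1, which acts in assembly of the large ribosomal subunit. FOXA1 is a pioneer factor that binds closed chromatin in liver and other endoderm and makes it accessible.

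Markers of liver and of other cell types were read in the same libraries, and wherever a gene has a pair of values the static one comes first. Of 30 hepatocyte markers 6 were analysed, 2 of them members, and ALB, AFP and 22 others were not analysed here. In static culture the listed values of AMBP and ASGR1 were 0, against 0.0580 and 0.176 FPKM under FSS, which goes against a hepatocyte label, while VTN was at 1.92 and 1.10 FPKM and CPS1 at 442 and 119. The bile duct keratin KRT7 was at 485 and 462 FPKM and SOX9 at 0.0402 and 0.154. The 4 fibroblast markers analysed, of 6, summed to 41.7 FPKM in static culture and 13.1 FPKM under FSS, with COL1A1 at 28.0 and 5.15, LUM at 11.9 and 6.71, COL3A1 at 1.77 and 0.305 and DCN at 0 and 0.907. The leukocyte markers CD68 and CD14 were at 1.56 and 5.22 and at 0.147 and 0.836 FPKM, and the endothelial CDH5 at 0.818 and 0.634. The part of other cells in the member values was not tested. HepG2 is the name that the sample titles give, and the identity of the line was not tested either.

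CEBPD was left out of the reading of start sites. Around those of the other 5 members, 7 windows of 300 bases were read from RefSeq on GRCh38.p14. Each runs from 250 bases before the start to 50 bases from it onward. The following 4 are printed, in lower case and 5′ to 3′ on the strand of the gene, because they belong to the gene with the lowest level (CEBPA), the gene with the highest level (CEBPB) and the gene with the largest log2 ratio (CEBPG, both starts). Capitals mark every match on either strand to 5 motifs, of which no 2 matches overlap in the windows printed. They are the CCAAT box, the core of the cyclic AMP response element, spelled TGACG, and the box at which TATA-binding protein sits, spelled TATAAA. The composite C/EBP-ATF response element was searched as TGATGNAA, and the site of TEAD factors as GGAATG.
CEBPA, chr19:33302485-33302784, minus strand: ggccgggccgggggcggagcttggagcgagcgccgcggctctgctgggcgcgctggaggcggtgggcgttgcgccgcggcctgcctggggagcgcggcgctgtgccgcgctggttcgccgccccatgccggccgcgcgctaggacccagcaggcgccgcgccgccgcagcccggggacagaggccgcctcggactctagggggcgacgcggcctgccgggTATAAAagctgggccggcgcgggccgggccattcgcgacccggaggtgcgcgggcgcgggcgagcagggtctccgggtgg
CEBPB start 2, chr20:50190580-50190879, plus strand: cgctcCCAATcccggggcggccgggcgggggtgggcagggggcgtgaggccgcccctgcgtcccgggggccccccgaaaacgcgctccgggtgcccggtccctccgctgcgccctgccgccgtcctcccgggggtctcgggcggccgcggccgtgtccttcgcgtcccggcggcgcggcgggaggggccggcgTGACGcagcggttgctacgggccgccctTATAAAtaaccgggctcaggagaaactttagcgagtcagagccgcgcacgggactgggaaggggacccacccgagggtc
CEBPG start 1, chr19:33373459-33373758, plus strand: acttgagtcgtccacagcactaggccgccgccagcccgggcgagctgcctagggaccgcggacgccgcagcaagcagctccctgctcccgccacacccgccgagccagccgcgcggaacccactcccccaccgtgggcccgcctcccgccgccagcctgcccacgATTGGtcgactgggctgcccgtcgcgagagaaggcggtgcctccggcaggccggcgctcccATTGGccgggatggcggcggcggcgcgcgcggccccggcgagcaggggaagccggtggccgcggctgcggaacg
CEBPG start 2, chr19:33373863-33374162, plus strand: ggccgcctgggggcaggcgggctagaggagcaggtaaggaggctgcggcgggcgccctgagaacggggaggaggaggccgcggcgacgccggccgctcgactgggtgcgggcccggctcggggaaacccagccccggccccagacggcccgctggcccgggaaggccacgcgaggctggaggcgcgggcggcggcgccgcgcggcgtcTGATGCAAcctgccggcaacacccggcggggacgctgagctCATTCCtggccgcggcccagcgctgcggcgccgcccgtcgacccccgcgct

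The window of CEBPA held a TATA box at position -30 from the start, as did that of CEBPB start 2 at position -29. CEBPB start 2 also held the TGACG core at -57, and CEBPZ held it at -174. A CCAAT box lay at -245 of CEBPB start 2, and the same bases lie at position 2 of CEBPB start 1. At CEBPG start 1 the CCAAT box was read on the opposite strand, as attgg, at -85 and -24. At CEBPG start 2 a C/EBP-ATF element, the composite site shared by C/EBP and ATF proteins, lay at -42 and a TEAD site at -1. Of 35116 RefSeq windows of this length, 11.5% held TATAAA, 24.6% TGACG, 34.6% CCAAT, 3.62% TGATGNAA and 14.0% GGAATG. The letters TTGCNNAA (C/EBP site), TNTTTAC (forkhead site) and GAANNTTC or TTCNNGAA (heat shock element) were in 0 of the 7 windows, against 10.5%, 10.8% and 13.5% of all windows. GGGCGG (GC box), in 45.0% of all windows, was in those of CEBPA, CEBPB, CEBPG start 2 and FOXA1. The GC content of the 7 windows ran from 62.7% to 80.7%, where the median of all windows was 58.7%. A match is a description of the letters and not evidence of binding.

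**Figure D1:**
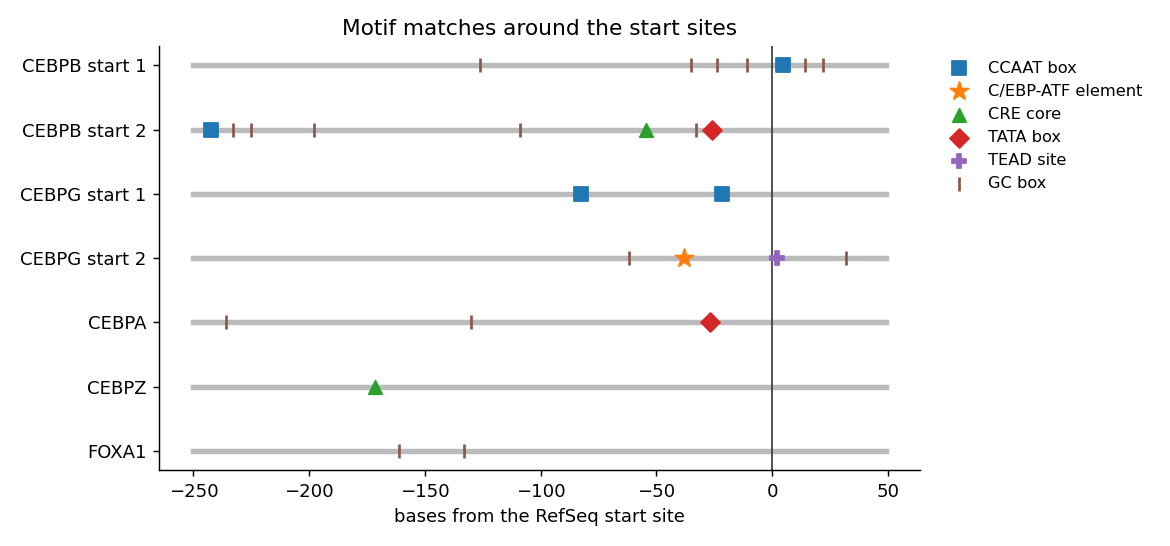
Position of each motif match (markers, see key) in the RefSeq windows of 5 member genes, with bases from the start site on the x axis and 1 line per window. The C/EBP-ATF element lies at -42 of CEBPG start 2, and the TATA boxes lie at -30 of CEBPA and -29 of CEBPB start 2.

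The members split by direction. CEBPB and CEBPG were higher in the FSS library, CEBPA and CEBPD were lower, and CEBPZ and FOXA1 were within 1.5-fold. Differences are log2(FPKM + 1) in FSS less the same in static. Folds are given on this scale, where the change of a low gene comes out too small, and a gene is called higher or lower at 1.5-fold. So 2 of 6 members were higher, where 10.5% of the 11221 genes that reached 0.5 FPKM in either library were. Another 2 of 6 (33.3%) were lower, which is near the 29.5% over all genes. The median log2 ratio was 0.36 over the members and -0.25 over all genes. Because genes that reached 5 FPKM had a median of -0.23, the ratios of the members are also given centred on that value. After centring, 3 members were higher (CEBPB, CEBPG and CEBPZ) and 1 lower (CEBPA), where 17.8% and 17.9% of all genes were. Of the usual reference genes, GAPDH had a log2 ratio of 0.18 (0.41 after centring) and ACTB one of 0.10 (0.33 after centring). Each group is a single library, so none of these differences has a replicate check or a test, the read depth is unknown, and fewer cells with a transcript cannot be told apart from less transcript per cell.

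**Figure D2:**
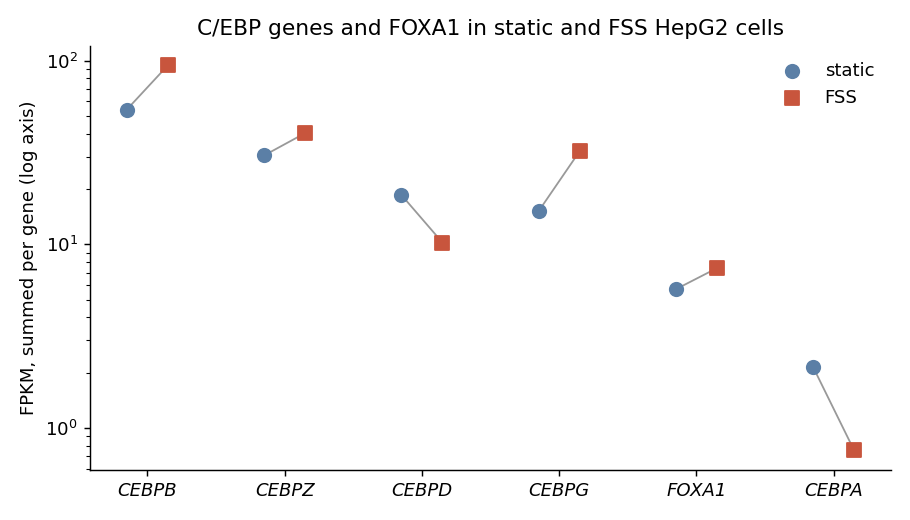
Summed FPKM per gene on a log axis in the static library (circles) and the FSS library (squares), 1 library per group, with a line joining the values of a gene. CEBPB goes from 54.1 to 94.4 FPKM and CEBPG from 15.1 to 32.1, while CEBPD goes from 18.6 to 10.2 and CEBPA from 2.15 to 0.755.

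CEBPB, on chromosome 20 and made of 1 exon, encodes the C/EBP protein best known for activation by interleukin-6 and for acute phase genes. It was at 54.1 FPKM in static culture and 94.4 FPKM under FSS. That is a log2 ratio of 0.79, or 1.73-fold, and 1.02 after centring. It had the highest level of the 6 genes in both libraries. Its level lay above that of 91.3% of all gene symbols in static culture (rank 1015) and of 95.6% under FSS (rank 506). Of all genes past the minimum, 6.54% had a larger log2 ratio. The transcript listed, CEBPB-201, starts in GENCODE 96 bases before the RefSeq start of the second window printed above.

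CEBPG, on chromosome 19, had the largest log2 ratio of the members. It was at 15.1 FPKM in static culture and 32.1 FPKM under FSS, a log2 ratio of 1.04, or 2.06-fold, and 1.27 after centring. Its rank moved from 3810 to 1668 of 11589, and 3.91% of genes had a larger ratio. It overtook CEBPD, the gene next above it among the zipper C/EBP genes of the static library. Both of its annotated transcripts were listed, and both were higher in FSS. CEBPG-201 was at 15.0 and 29.5 FPKM (log2 ratio 0.93) and made up 99.2% of the gene in static culture and 91.7% under FSS. CEBPG-202 was at 0.119 and 2.66 FPKM (log2 ratio 1.71) and went from 0.790% to 8.28% of the gene. Its ratio was 0.58, within 1.5-fold, with a pseudocount of 5 and 3.65 with one of 0.1. The transcripts share 3543 exon bases and differ by first exons of 566 and 302 bases, so only reads in the first exons tell them apart. Their GENCODE starts are 982 bases apart. The window with the C/EBP-ATF element is that of the RefSeq start nearest to CEBPG-202, which starts 199 bases after it. The RefSeq start of the CEBPG window with the CCAAT boxes lies 379 bases after the start of CEBPG-201.

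CEBPD, a gene of 1 exon whose protein is induced early in the acute phase response, was at 18.6 FPKM in static culture and 10.2 FPKM under FSS. The log2 ratio was -0.80, or 1.75-fold lower, and -0.57 after centring, which is within 1.5-fold. Its level went from above 72.9% of gene symbols (rank 3138) to above 60.8% (rank 4541). Of all genes, 18.5% had a lower ratio.

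CEBPA, which encodes the C/EBP protein of the differentiated hepatocyte, was the lowest of the 6 genes in both libraries. It was at 2.15 FPKM in static culture and 0.755 FPKM under FSS, a log2 ratio of -0.85 and -0.61 after centring. The plain ratio of the values was 2.85-fold, and adding 1 to the FPKM brings this to 1.80-fold. Its static level lay above that of 19.1% of gene symbols (rank 9377) and its FSS level above 12.0% (rank 10205). A lower ratio was found in 16.8% of genes. CEBPA and CEBPG are neighbours on chromosome 19, 70.8 kb apart in GENCODE 29, and went in opposite directions. PEPD, a peptidase gene 4.26 kb beyond CEBPG and named after its value was seen, was at 14.7 and 14.0 FPKM.

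Ratios were also taken less the median of genes of like GC content, which removes the shift over all genes together with any part that goes with GC content. In 20 bins of transcript GC content the median log2 ratio was -0.15 in the bin of lowest GC and -0.48 in the bin of highest GC, from 64.1% to 74.7%. The transcripts of CEBPA (65.9% GC), CEBPB (66.2%) and CEBPD (70.0%) all lie in that highest bin. Less the median of the bin, the log2 ratios were -0.36 for CEBPA and -0.32 for CEBPD, both within 1.5-fold, and 1.27 for CEBPB. CEBPD was already within 1.5-fold after centring alone, and CEBPA was not. Less the medians of their own bins, CEBPG (43.9% GC) had 1.23, FOXA1 (51.3%) 0.55 and CEBPZ (39.6%) 0.49. The part of GC content in the member values was not tested.

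CEBPZ and FOXA1 differed less between the libraries. CEBPZ, on chromosome 2 with 16 exons, was at 30.4 FPKM in static culture and 40.3 FPKM under FSS. The log2 ratio was 0.39, or 1.31-fold, and 0.63 after centring, which is past 1.5-fold. It was the gene second in level in static culture, above 83.3% of gene symbols (rank 1938), and above 88.5% under FSS (rank 1337). FOXA1, on chromosome 14, was at 5.69 and 7.41 FPKM, with a log2 ratio of 0.33, or 1.26-fold, and 0.56 after centring. Its level lay above that of 38.4% of gene symbols in static culture (rank 7136) and 51.8% under FSS (rank 5589). A larger ratio was found in 16.4% of genes for CEBPZ and 18.5% for FOXA1. The table listed 1 of 3 annotated transcripts of CEBPZ and 1 of 5 of FOXA1. TTC6, a neighbour of FOXA1, was at 0.403 and 1.06 FPKM.

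CEBPZ shares its locus with genes on the other strand. CEBPZOS, which runs antisense to it, was at 26.8 FPKM in static culture and 14.4 FPKM under FSS, a log2 ratio of -0.86 and -0.62 after centring. All 4 of its listed transcripts had lower values under FSS, CEBPZOS-203 by less than 1.5-fold. CEBPZOS-204, the main one, was at 18.0 and 10.5 FPKM and CEBPZOS-201 at 6.26 and 3.55, while CEBPZOS-203 was at 0.616 and 0.306 and CEBPZOS-205 at 1.92 and listed at 0. The exons of CEBPZ-201 and CEBPZOS-204 overlap over 267 bases, 7.71% of the first and 8.45% of the second. The strand of the libraries was not given in the sources used here, so reads in the overlap cannot be told apart. NDUFAF7, a mitochondrial assembly factor gene whose start lies 47 bases from that of CEBPZ and which was named after its value was seen, was at 3.19 and 4.37 FPKM. Its log2 ratio was 0.36, within 1.5-fold, and 0.59 after centring, past it.

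The levels of the 4 zipper C/EBP genes ordered CEBPB, CEBPD, CEBPG and CEBPA in static culture and CEBPB, CEBPG, CEBPD and CEBPA under FSS. Their sum was 90.0 FPKM in static culture and 137 FPKM under FSS, 1.53 times as much. CEBPB made up 60.2% of the sum in static culture and 68.7% under FSS, and CEBPG 16.8% and 23.4%. CEBPD went from 20.7% to 7.43% and CEBPA from 2.39% to 0.549%. These shares and the ratios between genes do not depend on how the libraries are scaled. The level of CEBPB was 25.1 times that of CEBPA in static culture and 125 times under FSS, a change of 4.97 times. CEBPG over CEBPA went from 7.01 to 42.5, and CEBPB over CEBPD from 2.91 to 9.24. CEBPB over CEBPG, at 3.58 and 2.94, moved least of these.

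DDIT3, also called CHOP, encodes a C/EBP family member that pairs with the other C/EBP proteins and is known as a target of ATF4 in stressed cells. It was at 6.52 FPKM in static culture and 87.7 FPKM under FSS, a log2 ratio of 3.56, or 11.8-fold, and 3.79 after centring. The transcript that was main under FSS went from 2.28 to 50.1 FPKM and the one next to it in level from 2.66 to 29.8 FPKM. With DDIT3 counted, the sum of zipper C/EBP transcripts was 96.5 FPKM in static culture and 225 FPKM under FSS. DDIT3 went from 6.76% to 39.0% of it, and CEBPB from 56.1% to 41.9%. CEBPB was at 8.30 times the level of DDIT3 in static culture and 1.08 times under FSS. CEBPG held 15.7% and 14.3% of this larger sum.

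**Figure D3:**
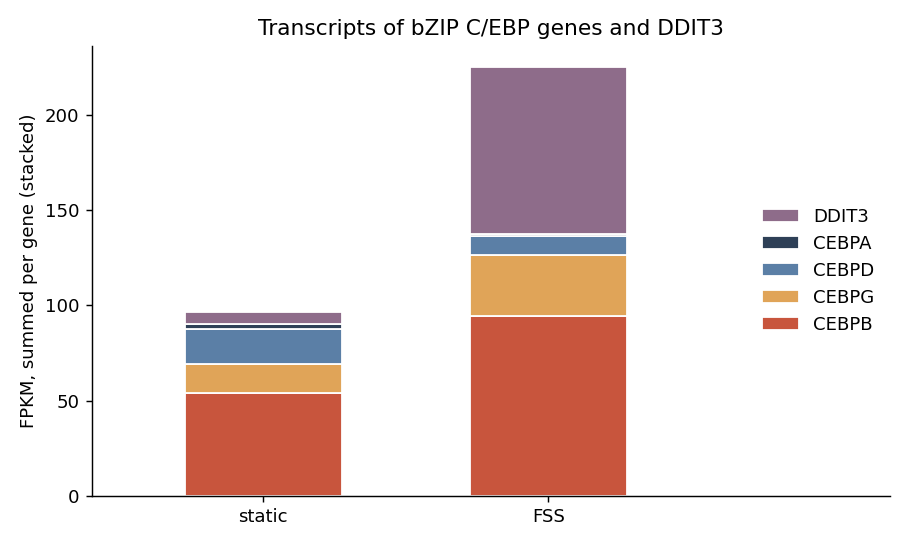
Stacked FPKM of CEBPB, CEBPG, CEBPD, CEBPA and DDIT3 in the static and the FSS library, 1 bar per library from 0. The stack is 96.5 FPKM in static culture and 225 FPKM under FSS, of which DDIT3 is 6.52 and 87.7 FPKM.

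How far each member's ratio depends on the processing differed between them. CEBPG ran from 0.88 to 1.27 and CEBPB from 0.75 to 1.27 over all settings tried, past 1.5-fold in each. CEBPZ ran from 0.35 to 0.63, FOXA1 from 0.22 to 0.56 and CEBPD from -0.86 to -0.32. CEBPA, the lowest gene, had the widest range, from -1.51 with nothing added to the FPKM to -0.31 with 5 added. The sign of every member was kept in each of these settings, but a change of pseudocount cannot alter a sign. Centring and GC correction raised every member's ratio, so only CEBPA and CEBPD could have changed sign there. Taking the highest transcript changes nothing for a gene with 1 listed transcript.

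**Figure D4:**
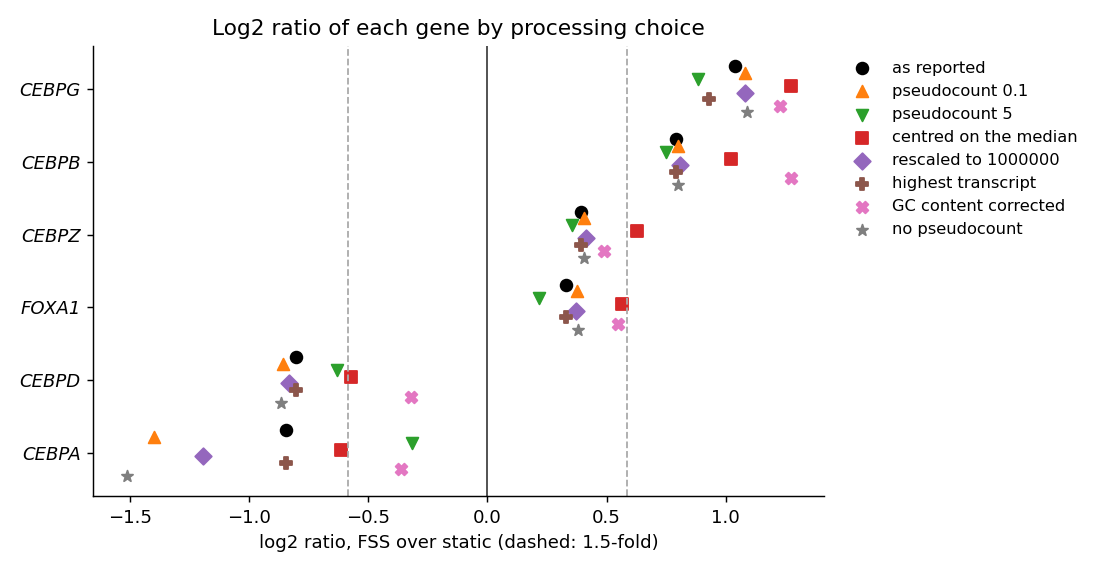
Log2 ratio of FSS over static (x axis) for each member under each processing choice (marker, see key), with dashed lines at 1.5-fold. CEBPG and CEBPB lie right of the line in every setting, and CEBPA spreads from -1.51 to -0.31.

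Among genes past the minimum, those whose pair of log2(FPKM + 1) values lay nearest to each member were found by distance over the 2 libraries. Nearest to CEBPB were GLRX3 at 0.053 and BUD31 at 0.068, with 2 genes within 0.1. Nearest to CEBPG were SLC2A1 at 0.068 and ZFAND5 at 0.070, with 4 within 0.1. GID8 (0.018) and UROS (0.024) were nearest to CEBPD, HCN3 (0.022) and LIPH (0.024) to CEBPA, POLR2C (0.039) and CDCA5 (0.045) to CEBPZ, and AKR1C3 and TAF3 (both 0.034) to FOXA1. Within 0.1 lay 21 genes for CEBPD, 18 for CEBPA, 18 for CEBPZ and 31 for FOXA1. So few genes shared the pair of levels of CEBPB or CEBPG, and with only 2 libraries a like pair of values says no more than that.

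Genes that feed into CEBPB and CEBPD were taken as cytokines of the interleukin-6 family and interleukin-1, with their receptors, kinases and downstream factors, among them NF-kappaB subunits. They were higher in FSS in 8 of 17 cases and lower in 1, and 9 and 1 after centring. Of all genes 10.5% were higher and 29.5% lower, or 17.8% and 17.9% after centring. Their median log2 ratio was 0.45, where that of all genes was -0.25. IL6 itself was at 0.0746 FPKM in static culture and 12.5 FPKM under FSS. IL11 was at 0.854 and 27.4 FPKM, and LIF, another cytokine of the family, at 4.89 and 17.1 FPKM. OSMR, the oncostatin M receptor, was at 30.1 and 59.5 FPKM, the kinase JAK1 at 25.3 and 38.7 FPKM, and RELA, an NF-kappaB subunit, at 8.11 and 27.3 FPKM. The lower gene was IL6R, the receptor that binds IL6, at 1.58 and 0.427 FPKM. STAT3, the factor these receptors activate, its feedback inhibitor SOCS3, the LIF receptor gene LIFR and the kinase TYK2 were within 1.5-fold, with log2 ratios of -0.13, -0.55, -0.55 and -0.47. IL6R and these 4 were named after their values were seen. Among acute phase and inflammatory genes with C/EBP sites, 6 of the 8 analysed were higher and 1 lower, and 7 and 1 after centring, with a median of 1.74. IL6 is counted in both lists. CXCL8 was at 1.59 and 176 FPKM, CXCL2 at 1.90 and 26.2, CFB at 0.695 and 3.64 and PTGS2 at 0.774 and 2.28. LCN2 was at 0.0963 and 0.642 FPKM, within 1.5-fold on the scale used. C3, the central complement component, was the lower one, at 25.5 and 9.07 FPKM. The other 20 genes of that list, which holds most liver acute phase proteins, were not analysed here.

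Of 34 bZIP factors outside the family, 11 were higher and 6 lower, and 11 and 3 after centring, with a median of -0.02. The shares over all genes were 10.5% higher and 29.5% lower, or 17.8% and 17.9% after centring. FOSL1 was at 14.0 and 115 FPKM and the small MAF proteins MAFF and MAFG at 8.02 and 65.2 and at 13.7 and 87.9 FPKM. FOS was at 239 FPKM in static culture and 24.2 FPKM under FSS. ATF4, the main activator at C/EBP-ATF elements, was at 422 and 341 FPKM, within 1.5-fold. Of 26 genes known for such elements 8 were higher and 0 lower, with a median of 0.32, and 13 and 0 after centring. PPP1R15A, a phosphatase subunit that reverses the stress block of translation, was at 31.5 and 351 FPKM. SESN2 was at 6.93 and 83.0 FPKM, STC2 at 6.07 and 63.0 and the cystine transporter gene SLC7A11 at 16.9 and 77.9. By contrast SLC7A5, at 255 and 247 FPKM, and DDIT4, at 205 and 240 FPKM, were close in both libraries.

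Genes of Tribbles pseudokinases and of ubiquitin ligases, listed for the control of C/EBP protein stability, had a median of 0.47. Of these 9 genes 2 were higher and 0 lower, and 6 and 0 after centring. Not every one is known to act on a C/EBP protein. Over all genes 10.5% were higher and 29.5% lower, or 17.8% and 17.9% after centring. TRIB1, which directs CEBPA to degradation, was at 4.53 and 7.83 FPKM, and TRIB3 at 49.1 and 119 FPKM. TRIB3 is also counted among the genes known for C/EBP-ATF elements. SIAH1 was at 11.1 and 16.7 FPKM, MDM2 at 9.05 and 13.6 and CUL4A at 54.7 and 54.9. Of 14 genes for NF-Y subunits, cofactors and related factors, not all of them coactivators, 0 were higher and 3 (21.4%) lower. After centring the numbers were 2 and 1, and the median before it was -0.21. The share lower before centring was below that over all genes. The histone methyltransferase gene EHMT2 was at 10.5 and 5.05 FPKM, CARM1 at 24.3 and 14.4 and SMARCA2 at 15.2 and 9.22. SMARCB1, PRMT1 and PRMT5 were within 1.5-fold.

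Cell cycle genes that CEBPA is known to restrain or to act through were mostly within 1.5-fold, with a median of -0.19. Of these 15 genes 3 were lower and 1 was higher (3 and 2 after centring). By comparison, 29.5% of all genes were lower and 10.5% higher, or 17.9% and 17.8% after centring. Before centring, both shares of the list were below those over all genes. CDKN1A (p21), whose protein CEBPA stabilizes, was at 16.6 and 34.4 FPKM. CDKN1B was at 19.6 and 4.98 FPKM, RBL2 at 13.2 and 4.32 and MYC at 121 and 7.01. CDKN2A was at 101 and 77.0 FPKM, within 1.5-fold.

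Of 30 liver-enriched factors outside the members 16 were past the minimum and 13 were not analysed here. Of the 16, 12 were lower and 0 higher in FSS, and 10 and 1 after centring, where 29.5% of all genes were lower, or 17.9% after centring. The median was -0.89. With a pseudocount of 5 the number lower was 6, and at a fold of 2 it was 5. The nuclear receptors NR2F1, NR2F6 and NR1H3 were at 21.6 and 4.83, at 49.2 and 19.0 and at 7.18 and 2.74 FPKM. DBP, a bZIP factor of the clock, was at 8.34 and 2.35 FPKM, and NR1H2, at 14.8 and 20.2, had the highest ratio of the list. Of 35 metabolic targets of C/EBP and FOXA factors 9 were analysed, with 6 lower and 0 higher (4 and 1 after centring) and a median of -0.76. CPS1, the entry enzyme of the urea cycle, was at 442 and 119 FPKM, and HPD, of tyrosine breakdown, at 5.84 and 0.778. PPARGC1A, a coactivator of gluconeogenesis, was at 3.79 and 0.0317 FPKM, and PCK2 at 24.5 and 9.41. ASS1, at 243 and 162 FPKM, was just past 1.5-fold before centring and within it afterwards.

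Of 13 partners and corepressors of FOXA1, itself at a log2 ratio of 0.33, 0 were higher and 8 lower, and 0 and 5 after centring. Their median was -0.71, or -0.47 after centring. Of all genes 10.5% were higher and 29.5% lower, or 17.8% and 17.9% after centring, with a median of -0.25. GATA2 was at 36.6 and 9.20 FPKM, TFAP2A at 28.4 and 10.6, the corepressor TLE2 at 5.89 and 2.35, and the nuclear factor I genes NFIA and NFIC at 7.80 and 3.51 and at 28.8 and 17.3. Among 21 other forkhead genes 3 were higher and 9 lower, and 3 and 7 after centring, with a median of -0.47, or -0.23 after centring. FOXN1 was at 3.51 and 0.0661 FPKM, FOXO4 at 5.87 and 1.41, the mitotic factor FOXM1 at 37.1 and 14.1 and FOXC1 at 13.0 and 4.94. FOXK2 was at 25.7 and 18.6 FPKM, within 1.5-fold.

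Genes of ribosome assembly were listed around the large subunit, on which the yeast relative of CEBPZ acts, though not all are confined to it. They were higher in 10 of 38 cases and lower in 0, and 19 and 0 after centring. Their median log2 ratio was 0.36, or 0.59 after centring, close to the 0.39 and 0.63 of CEBPZ. Among all genes 10.5% were higher and 29.5% lower, or 17.8% and 17.9% after centring. PPAN had the highest log2 ratio of the list, 2.38 (2.61 after centring), with 4.78 FPKM in static culture. NOP58 was at 78.6 and 216 FPKM, RRP1 at 7.38 and 18.7 and NIP7 at 16.9 and 39.1. NPM1, at 845 and 1234 FPKM, and NCL, at 153 and 224 FPKM, were within 1.5-fold before centring and past it afterwards.

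**Figure D5:**
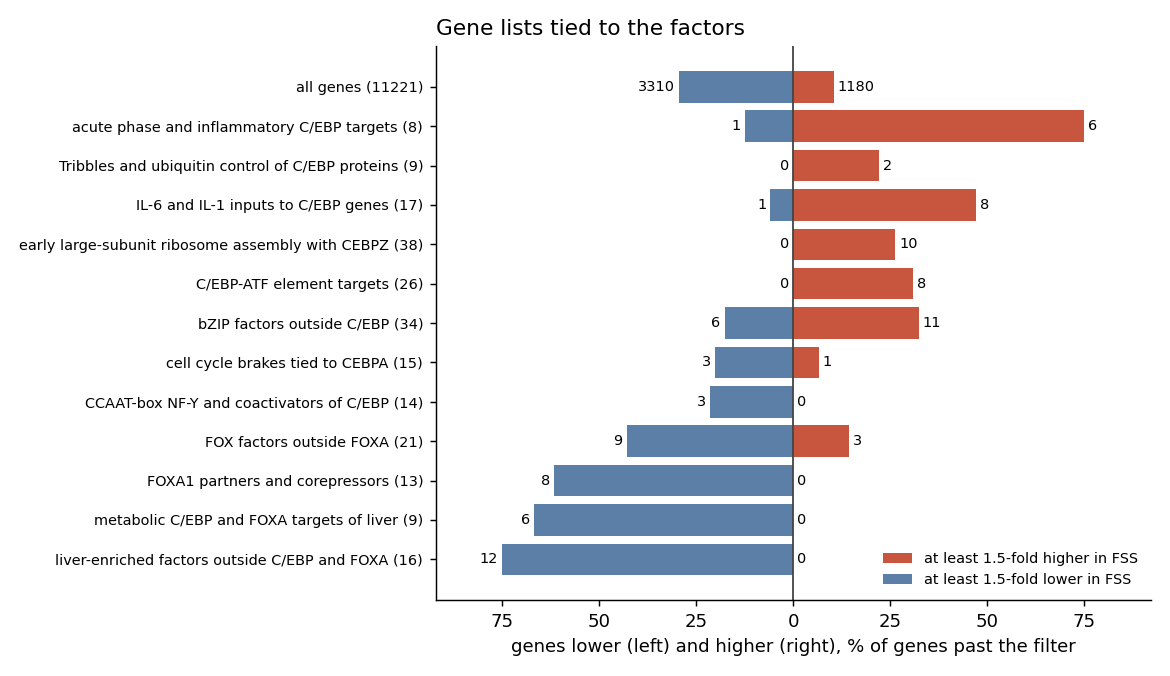
Share of genes past the minimum, in percent, at least 1.5-fold lower (left, blue) or higher (right, red) in FSS for each gene list, with the number of genes at the bar ends and list sizes in brackets. The top bar is all 11221 genes, with 3310 lower and 1180 higher, and the liver-enriched factors have 12 of 16 lower.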

How the data were processed

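RNA of 2 libraries, FSS and static, was analysed, each a mix of 3 replicates, with 1 library per group. The authors deposited FPKM per transcript. By the study's methods, abundance came from StringTie and FPKM (at least 0.5) from Ballgown, and hg19, STAR 2.5.2b, HISAT2 2.0.5 and cutadapt are named in the processing notes of the submitters. FPKM is relative to the mapped fragments of a library, so a few very high genes lower the rest. Counts and depth are unknown. The listed FPKM summed to 325712 (static) and 323352 (FSS), and there were 0 further value columns without a sample.

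FPKM was summed per gene symbol over 34714 transcripts. Genes with at least 0.5 FPKM in a library were kept (11221 genes, 368 left out). The log2 ratio used a pseudocount of 1. Centring subtracted the median of the 7898 genes with at least 5 FPKM. Members and gene lists were chosen with earlier results of these data known. The text names all members, every analysed gene of lists with up to 8 such genes, from other lists the 4 with the largest absolute log2 ratio and the 2 with the highest mean FPKM, GAPDH, ACTB, the 2 genes nearest to each member, and genes overlapping a member. The values of 1 gene that this rule names are not reported here. List medians and counts are over genes past the 0.5 FPKM minimum.

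GC content and exon structure came from GENCODE 29, on a later build than hg19, matched by name (11158 of 11221 genes had a GC value, that of the longest transcript). Promoter windows came from RefSeq on GRCh38.p14 for 5 members, and no coordinate was taken from hg19. Windows on chromosome 8, where CEBPD lies, were left out. The alternatives were a pseudocount of 0.1 or 5, centring, rescaling to a sum of 1000000, taking the highest transcript of a gene, other filters, a fold of 2 and GC correction in 20 bins. A ratio with no pseudocount was added after seeing the data. The steps were tested on simulated data, in which some genes at 5 FPKM or more were changed 2-fold. Lower genes, such as CEBPA, were not changed there, and no shift over all genes was put in. Scripts ran in Python 3.11.15 with pandas 2.3.3 and numpy 2.4.6, and figures were drawn with matplotlib 3.10.9.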

Additional observations from a re-analysis of the deposited data

How the results depend on the processing

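No setting turned the direction of a member, though a change of pseudocount cannot do so. The lower call of CEBPA was lost with a pseudocount of 5 (-0.31) and with GC correction (-0.36), that of CEBPD with centring (-0.57) and GC correction (-0.32), and CEBPZ passed 1.5-fold with centring (0.63). The counts over all genes, 1180 higher and 3310 lower, became 664 and 1609 with a pseudocount of 5, 2002 and 2012 with centring, 2045 and 1839 with GC correction, and 484 and 1278 at a fold of 2. By the highest transcript of each gene in place of the sum, the static levels of CEBPA, CEBPD, CEBPG and FOXA1 lay above 26.2%, 79.5%, 74.7% and 49.2% of genes, and the FSS levels of CEBPD and FOXA1 above 69.6% and 61.9%. Among genes with at least 0.5 FPKM in the FSS library, CEBPA lay above 4.24%. Of 234 counts over gene lists under the alternatives, 186 were within 1.5 times the reported count. These include counts of 0 that stayed at 0. They also include all counts without the filter, which could not differ. With a pseudocount of 1, a gene under 0.5 FPKM in both libraries cannot reach 1.5-fold. No paired analysis was possible because each group had 1 library. The unknown depth limits most the values under 1 FPKM, among them CEBPA under FSS and CEBPG-202 in static culture.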
